A study of Homo sapiens with 6 samples.

Results

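Solute carriers are membrane proteins that move amino acids, sugars, ions, metals, vitamins, drugs and metabolites across the plasma membrane or the membranes of organelles. Some are coupled to sodium or protons, some exchange one solute for another, and some let a solute run down its gradient. In liver cells they supply amino acids and fuels, take up bile acids and drugs from blood, and set the cell's zinc, iron and pH. The genes described here are those with a solute carrier symbol (SLC or SLCO followed by family number, letter and member number), without the mitochondrial SLC25 carriers and without SLC10A1 and SLC27A5, whose value reached 1 in 3 or more of the 6 libraries. There were 159 such genes among 276 solute carrier rows and among 13696 genes tested.

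RNA was sequenced from Huh7 cells, an established human hepatocellular carcinoma line. The sh2 libraries (3) came from cells that were transduced to knock down VersicanV1, a splice form of the matrix proteoglycan that VCAN encodes. The shNC libraries (3) came from cells given a control lentivirus. Both viruses were made in 293T cells and delivered with polybrene, the sh2 libraries carry the name of a single hairpin, and the labels do not say whether replicates were separate cultures, so the p-values measure the spread between libraries, which may be technical. VCAN, which the table gives per gene and not per isoform, had 1.90, 1.74 and 1.64 in sh2 libraries, against 4.79, 6.24 and 8.10 in shNC libraries (log2 fold change -1.39, SE 0.19, limma adjusted p = 0.0103), and without shNC replicate 2 the adjusted p was 0.0562.

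Values are the deposited ones, scaled for gene length and library size and treated here as FPKM. Their sum was 922125 to 975501 in sh2 and 851418 to 947769 in shNC libraries. The mitochondrially encoded genes held 23.8% to 31.2% of that sum in sh2 and 15.98% to 19.2% in shNC libraries, and their part in the differences below was tested only by rescaling each library without them. All 8 hepatocyte markers were at 1 or more in each library, with sums of 7367 to 9192 in sh2 and 6086 to 7441 in shNC libraries. The groups did not overlap for 3 of them, 2 higher and 1 lower in sh2. The 13 blood cell markers summed to 54.3, 151 and 44.3 in sh2 replicates 1, 2 and 3 and to 24.8 to 31.8 in shNC libraries, with 12 of them highest in sh2 replicate 2. LYZ alone made 44.5, 68.2 and 37.8 of these sums in sh2 and 18.3, 24.7 and 24.8 in shNC libraries. The groups overlapped for 10 of the 13 markers, and 3 were higher in sh2. The part of either list in the results was not tested. In bulk RNA of this kind, fewer cells of a type and less RNA per cell cannot be told apart.

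Of the 159 transporter genes, 5 rose and 4 fell in the sh2 libraries (limma, Benjamini-Hochberg adjusted p below 0.05 over all genes tested). That is 5.66% of the transporters, beside 8.08% of all genes tested, of which 4.15% rose and 3.94% fell. Those that rose included the sodium-proton exchanger SLC9A8 (ENSG00000197818), the zinc importer SLC39A5 (ENSG00000139540), the magnesium transporter SLC41A2 (ENSG00000136052) and the intracellular sugar transporter SLC2A8 (ENSG00000136856). Those that fell were the glutamate transporter SLC1A3 (ENSG00000079215), the organic cation exporter SLC47A1 (ENSG00000142494), the zinc and manganese importer SLC39A8 (ENSG00000138821) and SLC45A4 (ENSG00000022567), of a proton-coupled sugar transporter family. After rescaling each library without its mitochondrially encoded genes, 7 transporters rose and 2 fell, and among all genes 673 rose and 221 fell, against 568 and 539 as deposited. The rescaling gave a median log2 fold change of 0.06 for all genes, against -0.03 as deposited, and class medians of 0.14 for amino acid, 0.21 for Golgi and endoplasmic reticulum, 0.26 for inorganic ion, 0.28 for metal, 0.13 for organic ion and -0.10 for sugar carriers.

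The calls rested on which libraries entered the test. Without sh2 replicate 1, 22 transporters rose and 10 fell, which is 20.1% of the transporters, beside 24.4% of all genes tested (12% up and 12.4% down). Without shNC replicates 1, 2 and 3 in turn, 3, 1 and 3 transporters passed, and without sh2 replicates 2 and 3, 2 and 4 passed. The 2 groups of libraries did not overlap for 47 transporters, 28 higher and 19 lower in sh2, or 29.6% of them. Among all genes tested that share was 33.1% (14.4% higher and 18.7% lower). In limma, 39 of the 159 transporters had an unadjusted p below 0.05. The share of all genes tested at that cut is not given, so the counts at that cut below have no background beside them. They are therefore not read as a result about any class or list.

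**Figure D1:**
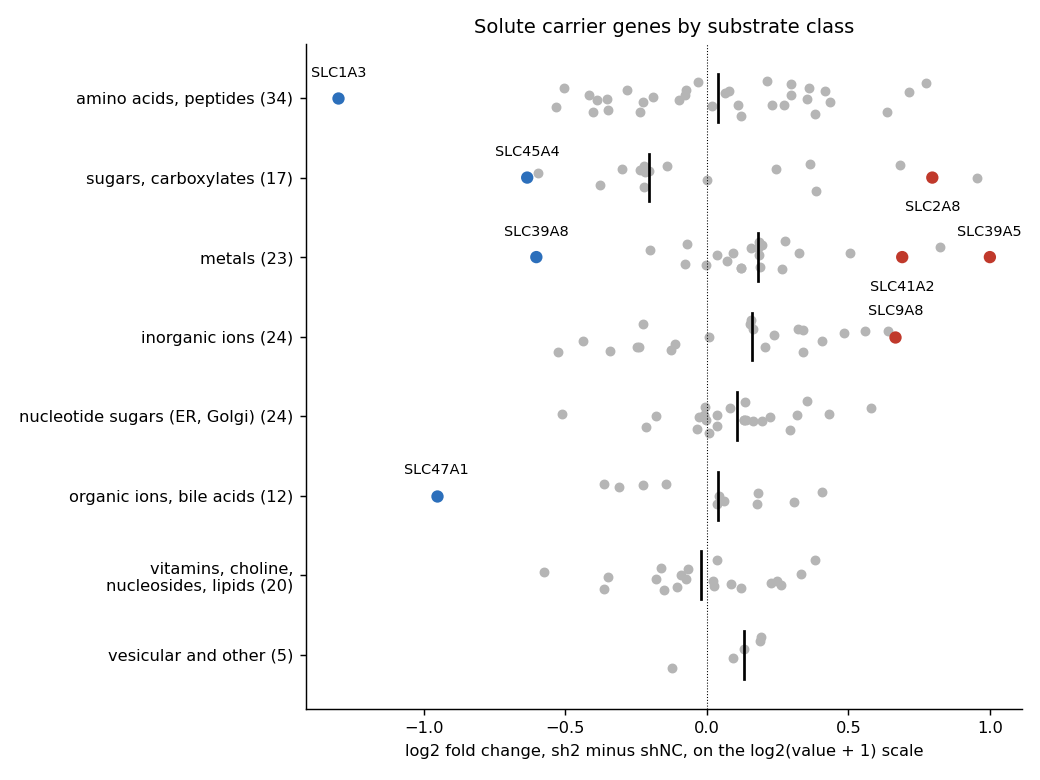
Each point is 1 of the transporter genes reported here. The horizontal axis is the log2 fold change of sh2 minus shNC, on the log2(value + 1) scale, by substrate class with the number of genes in brackets. Coloured points are the named genes with a limma adjusted p below 0.05 (red higher, blue lower), grey points did not pass, and black bars are class medians, which lie between -0.20 and 0.18.

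Levels spanned a wide range. The mean over 6 libraries went from 0.792 to 180.8 per gene, with a median of 10.4. There were 6 transporters at a mean of 100 or more. In descending order they were the glutamine and neutral amino acid transporter SLC1A5 (180.8), the glutamine transporter SLC38A2 (128), the zinc transporter of the secretory pathway SLC39A7 (124), the amino acid exchanger heavy chain SLC3A2 (121), the nucleotide sugar transporter SLC35D2 (120) and the chloride-bicarbonate exchanger SLC4A2 (110). A further 77 lay between 10 and 100, and 76 lay below 10.

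The filter on values removed 117 solute carrier genes, of which 98 had no library at 1 or more. Just outside it, SLC45A3 had its 3 highest values at 1.26, 1.02 and 0.99 and the fatty acid transport family member SLC27A6 at 1.46, 1.34 and 0.96. Just inside, the organic anion transporter family member SLCO6A1 had 1.49, 1.17 and 1.04 and the inositol transporter SLC5A3 had 1.47, 1.23 and 1.09. No transporter passed through 1 group alone, and 151 of the 159 were at 1 or more in each library. Carriers known from mature hepatocytes were among those outside. The hepatic glucose transporter SLC2A2 lay at 0.17 to 0.28 in sh2 and 0.05 to 0.10 in shNC libraries, and the hepatic anion transporter SLCO1B3 at 0.13 to 0.43 and at 0 to 0.10. The glucose transporter SLC2A3 had 0.37, 1.19 and 0.87 in sh2, against 0.15, 0.02 and 0.06 in shNC libraries. Fitted with no filter, 0 of these 117 genes passed in limma, and 16 had an unadjusted p below 0.05.

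Carriers of inorganic ions set intracellular pH, chloride and cell volume. Of 24 members, 2 rose and 0 fell, and the class had a median log2 fold change of 0.16, beside -0.03 for all genes tested. Among all genes tested 4.15% rose and 3.94% fell, which is the background for this and the other class counts. SLC9A8, an exchanger of the Golgi and other internal membranes, had 4.55, 5.88 and 6.63 in sh2, against 2.94, 3.52 and 3.10 in shNC libraries. The groups did not overlap (log2 fold change 0.67, SE 0.17, limma adjusted p = 0.0455), and the call was lost without any 1 library other than sh2 replicate 1. SLC9A8 passed under 6 of 13 alternatives, so settings that kept every library also lost the call. SLC9A7, an exchanger of the trans-Golgi, had 0.50 to 1.39 in sh2 and 0.96 to 1.34 in shNC libraries and did not pass. SLC9B2, of a related branch of proton exchangers, had 6.82, 5.00 and 4.89 in sh2 and 7.60, 7.30 and 10.6 in shNC libraries and did not pass (adjusted p = 0.104), but fell without sh2 replicate 1 (-0.66, adjusted p = 0.0278). In that setting 7 members of the class rose and SLC9B2 alone fell, beside 12% up and 12.4% down among all genes tested.

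Cation-chloride cotransporters, which set cell volume and chloride, had 5 members tested and 0 past the threshold (limma), 2 having an unadjusted p below 0.05 and 0 passing in limma without trend and robust moderation. SLC12A4, a potassium-chloride cotransporter, had 20.5, 32.8 and 30.4 in sh2, against 17.6, 16.5 and 17.6 in shNC libraries (log2 fold change 0.64, 95% interval 0.24 to 1.04, adjusted p = 0.0572). The sodium-potassium-chloride cotransporter SLC12A2 had 17.4, 25.6 and 22.7 in sh2, against 14.6, 18.6 and 15.3 in shNC libraries, where the groups overlapped (adjusted p = 0.152). Without sh2 replicate 1 both passed, with adjusted p = 0.00253 for SLC12A4 and 0.0235 for SLC12A2. SLC12A7, of the same family, then passed too (log2 fold change 0.53, limma adjusted p = 0.0248). The bicarbonate exchanger SLC4A2 averaged 119 ± 2.30 in sh2 and 101 ± 10.5 in shNC libraries (adjusted p = 0.195). The phosphate transporters SLC20A1 (33.0 in sh2 and 25.6 in shNC) and SLC20A2 (50.4 in sh2 and 44.6 in shNC) did not pass.

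Promoters of the amino acid class, the largest one, were searched for TGATGNAA on both strands, the core of the element that ATF4 and C/EBP factors bind in genes switched on by amino acid shortage. The motif was chosen after the values described below had been seen. RefSeq gives windows from 250 bases before to 50 after each annotated start, for 29 of the 34 genes of the class. A match was found for 6 of these 29 (20.7%), for 2 of 100 other transporters with a window (2.0%), for 2.65% of all tested genes with a window and for 4.46% of all genes with a RefSeq window. Counted by window, the share was 13.3% in the class and 3.62% of all RefSeq windows. A match is a run of letters, not a site of binding. All 6 matches of the class are shown, so that the letters can be read beside the values that follow. Of the 6 genes, SLC7A1 was 1.90 times the highest other library in sh2 replicate 1, SLC1A5 1.49, SLC38A1 1.43 and SLC3A2 1.31 times, while SLC1A4 and SLC1A3 were not highest there. SLC7A5 and SLC6A9, also high in that library, had windows without a match. No match was found for SLC16A12 (1.46 times), SLC7A2 (1.24 times) or SLC43A1 (1.13 times), also highest there. Whether each of these had a window to search is not given. SLC7A11, the furthest apart in that library (3.73 times), had no window to search. Whether a match goes with a high value in that library was not tested. Capitals mark the match, read as TGATGNAA or as its reverse complement, and coordinates are GRCh38.p14 with the strand of the gene.
SLC1A5, chr19:46784893-46784922, minus strand: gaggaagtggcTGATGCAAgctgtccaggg
SLC38A1, chr12:46266502-46266531, minus strand: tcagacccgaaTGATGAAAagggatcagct
SLC7A1, chr13:29595663-29595692, minus strand: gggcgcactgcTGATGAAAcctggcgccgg
SLC3A2, chr11:62881725-62881748, plus strand: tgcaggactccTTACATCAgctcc
SLC1A4, chr2:64989381-64989410, plus strand: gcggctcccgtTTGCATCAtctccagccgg
SLC1A3, chr5:36596357-36596386, plus strand: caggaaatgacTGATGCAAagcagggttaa
In the GENCODE 29 annotation the runs of SLC1A5, SLC7A1 and SLC3A2 overlap an untranslated exon part of at least 1 transcript, those of SLC38A1 and SLC1A4 lie in introns, and that of SLC1A3 lies outside its gene. Each match lies in the window of 1 start, out of 3 annotated for SLC1A5, SLC3A2 and SLC1A3, 2 for SLC38A1 and SLC1A4, and 1 for SLC7A1.

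Of the 34 amino acid and peptide transporters, 0 rose and 1 fell, with a median log2 fold change of 0.04. SLC1A3, a sodium-coupled glutamate and aspartate transporter, had 3.01, 1.54 and 2.06 in sh2, against 5.47, 6.98 and 8.04 in shNC libraries. The groups were apart, and the mean was 2.203 ± 0.745 in sh2 and 6.83 ± 1.29 in shNC (SD, n = 3 each), a log2 fold change of -1.30 (SE 0.21, limma adjusted p = 0.0154). The call was lost without sh2 replicate 2 (adjusted p = 0.0548), shNC replicate 2 (0.0813) or shNC replicate 3 (0.0542). SLC1A1, the other glutamate transporter of this family tested, had 3.52, 4.83 and 3.92 in sh2, against 5.73, 7.31 and 6.03 in shNC libraries. Its groups did not overlap, but it did not pass (log2 fold change -0.53, 95% interval -0.90 to -0.17, adjusted p = 0.0731). The neutral amino acid members SLC1A4 and SLC1A5 showed other patterns, with 10.0, 10.4 and 9.60 in sh2 against 6.89, 7.35 and 8.11 in shNC libraries for SLC1A4 (adjusted p = 0.0938).

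Several amino acid carriers were high in sh2 replicate 1 alone. SLC7A11, the light chain of the cystine-glutamate exchanger that feeds glutathione synthesis, had 9.21 in sh2 replicate 1, 2.47 and 2.02 in sh2 replicates 2 and 3, and 1.70, 2.19 and 1.82 in shNC libraries. SLC1A5 had 288 in sh2 replicate 1, 140 and 121 in the other sh2 libraries, and 162, 181 and 193 in shNC libraries. SLC7A5, the light chain of the leucine exchanger, had 146, 86.7 and 73.2 in sh2, against 70.1, 87.5 and 70.9 in shNC libraries. In each of these 3 genes the first sh2 library stood above the other 5, which overlapped or differed less. SLC7A1, the arginine and lysine transporter, had 14.8, 7.76 and 5.85 in sh2, against 4.50, 6.25 and 5.31 in shNC libraries. The glycine transporter SLC6A9 had 13.2, 7.60 and 6.29 in sh2, against 5.02, 6.49 and 7.32 in shNC libraries. SLC38A1, a glutamine transporter, had 41.5, 20.9 and 18.1 in sh2, against 23.4, 28.9 and 24.9 in shNC libraries.

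By a fold set after these values were seen, sh2 replicate 1 was at least 1.5 times the highest other library for 5 transporters (3.14%, beside 1.12% of all genes tested). These were SLC7A11, SLC7A1, SLC6A9, SLC7A5 and, outside the class, the sodium-bicarbonate cotransporter SLC4A7. SLC1A5 reached 1.49 times and SLC38A1 1.43 times. In the other direction, sh2 replicate 1 was at most 1/1.5 of the lowest other library for 6 transporters (3.77%, beside 1.69% of all genes). They were SLC16A10, SLC26A6, SLC22A31, SLCO6A1, SLC16A13 and SLC2A11. This is 1 library, so the pattern has no replicate check.

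The heavy chain SLC3A2, which pairs with SLC7 light chains to reach the cell surface, had 165, 108 and 95.4 in sh2, against 118, 126 and 110 in shNC libraries. Its groups overlapped, and its log2 fold change was 0.02 with a 95% interval of -0.41 to 0.45. Summed over the 5 members SLC7A5, SLC7A6, SLC7A7, SLC7A10 and SLC7A11, the light chain level was 221, 159 and 135 in sh2 and 144, 164 and 152 in shNC libraries. SLC7A7, the light chain that exports cationic amino acids, had 45.2, 42.8 and 33.2 in sh2, against 52.9, 50.7 and 58.1 in shNC libraries, and did not pass (adjusted p = 0.0943).

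Genes known to be induced by amino acid shortage were set beside the carriers. Of 12 listed, 0 rose and 0 fell (limma), 3 had an unadjusted p below 0.05, 0 passed in limma without trend and robust moderation, and the median log2 fold change was 0.26. ASNS, asparagine synthetase, had 286 in sh2 replicate 1, 72.1 and 73.1 in sh2 replicates 2 and 3, and 90.1, 90.2 and 84.0 in shNC libraries. PSAT1, an enzyme of serine synthesis, had 331, 105 and 90.2 in sh2, against 143, 160 and 132 in shNC libraries. Both were high in the same library as SLC7A11 and SLC1A5. The regulator ATF4 had 361, 455 and 501 in sh2, against 379, 341 and 344 in shNC libraries, so it was lowest of the sh2 libraries there. CHAC1, a glutathione-degrading enzyme, had 2.75, 6.83 and 4.90 in sh2, against 4.69, 4.69 and 2.87 in shNC libraries, and SESN2 had 5.06, 9.63 and 8.99, against 5.19, 6.26 and 4.75. In sh2 replicate 1, 2 of the 12 genes were at least 1.5 times the highest other library, beside 1.12% of all genes tested. PHGDH was 1.42 times the highest other library there, DDIT4 1.30, CEBPG 1.30 and CEBPB 1.155 times. TRIB3, NUPR1 and DDIT3 were not highest there, nor were ATF4, CHAC1 and SESN2.

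**Figure D2:**
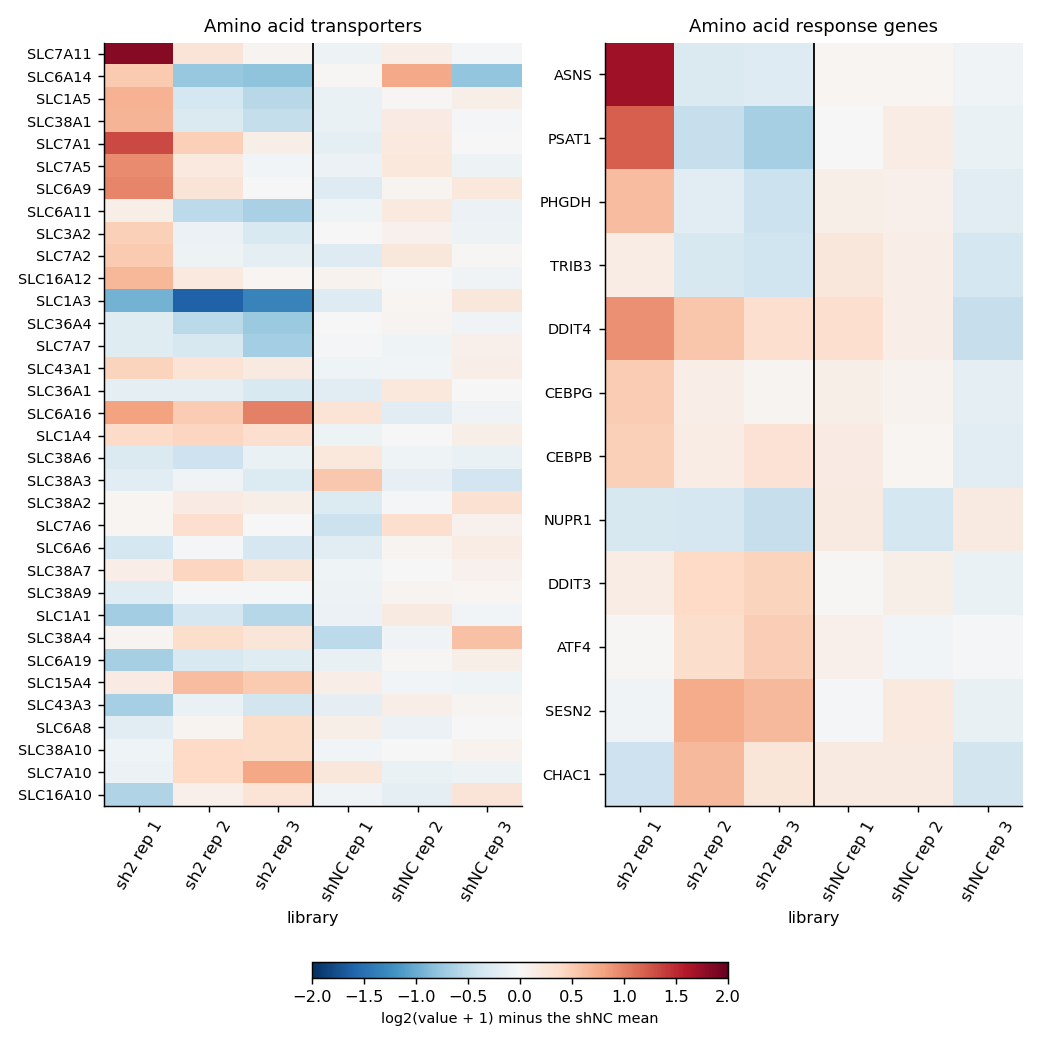
Heat maps of log2(value + 1) minus the shNC mean for the 34 amino acid transporters (left) and 12 amino acid response genes (right), 1 column per library with sh2 left of shNC, ordered by sh2 replicate 1 minus the mean of sh2 replicates 2 and 3. Red is higher and blue lower. SLC7A11, SLC7A1 and ASNS are darkest in sh2 replicate 1, and SLC1A3 is blue in all 3 sh2 libraries.

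Without sh2 replicate 1, 3 amino acid transporters rose and 4 fell, beside 12% up and 12.4% down among all genes tested. SLC1A5 then fell (log2 fold change -0.45, SE 0.12, limma adjusted p = 0.0260), as did SLC36A4, of a family of proton-coupled amino acid carriers (-0.64), SLC7A7 (-0.50) and SLC1A3 (-1.48). The lysosomal peptide and histidine transporter SLC15A4 (0.57), SLC38A10 (0.38) and SLC7A10 (0.59) rose. SLC6A16, an orphan member of the neurotransmitter transporter family, had 2.36, 1.75 and 2.86 in sh2, against 1.34, 0.66 and 0.84 in shNC libraries, and did not pass (adjusted p = 0.0556), nor without sh2 replicate 1 (0.0503). It passed after the rescaling (0.0486). SLC38A2, the second most abundant transporter, had 126, 138 and 132 in sh2, against 101, 119 and 152 in shNC libraries, a log2 fold change of 0.11 with an interval of -0.23 to 0.45.

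Of 23 metal transporters, 2 rose and 1 fell, with a median log2 fold change of 0.18. SLC39A5, a zinc importer that in polarized cells sits at the basolateral membrane, had 52.5, 61.7 and 65.3 in sh2, against 31.9, 29.3 and 26.96 in shNC libraries. The groups were far apart, with means of 59.8 ± 6.62 and 29.4 ± 2.46 (SD, n = 3 each), a log2 fold change of 1.00 (SE 0.13, limma adjusted p = 0.00969). It passed under 12 of 13 alternatives and missed without shNC replicate 2 (adjusted p = 0.0534). SLC39A8, an importer of zinc and manganese, had 28.7, 26.5 and 25.2 in sh2, against 41.9, 45.9 and 36.2 in shNC libraries (log2 fold change -0.60, SE 0.13, adjusted p = 0.0305). SLC41A2, a magnesium transporter, had 3.84, 4.23 and 4.13 in sh2, against 1.77, 1.97 and 2.76 in shNC libraries (0.69, SE 0.17, adjusted p = 0.0439). In both, all sh2 libraries lay on 1 side of all shNC libraries, and both calls were lost without any 1 library other than sh2 replicate 1, with adjusted p up to 0.125 for SLC39A8 and 0.150 for SLC41A2. SLC39A8 also missed after the rescaling without mitochondrially encoded genes (adjusted p = 0.0596). SLC39A8 and SLC41A2 each passed under 6 of 13 alternatives, so settings that kept every library also lost both calls.

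Among the SLC30 exporters, which move zinc out of the cytosol, 0 of 6 passed in limma, with or without trend and robust moderation, and 1 had an unadjusted p below 0.05. SLC30A1, the exporter of the plasma membrane, had 44.8, 30.8 and 29.03 in sh2, against 13.9, 20.7 and 23.5 in shNC libraries. Its groups did not overlap, and it had a log2 fold change of 0.82 with a 95% interval of 0.32 to 1.33 (adjusted p = 0.0550), passing after the rescaling (0.0456). SLC30A5, which loads zinc into the secretory pathway, had 80.6, 56.1 and 55.1 in sh2, against 57.2, 56.4 and 71.8 in shNC libraries. Of the 11 SLC39 importers, 1 rose and 1 fell. SLC39A13, an importer into the cytosol from internal stores, had 12.5, 16.5 and 16.3 in sh2, against 11.03, 9.23 and 10.7 in shNC libraries (adjusted p = 0.0692). It rose without sh2 replicate 1 (0.63, limma adjusted p = 0.0117). The most abundant, SLC39A7, had 115, 144 and 137, against 115, 109 and 123, and SLC39A14, an importer of zinc, iron and manganese, had 90.0, 93.0 and 88.9, against 66.1, 95.4 and 102.

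The iron carriers SLC40A1 and SLC11A2 did not pass. The iron exporter SLC40A1 (ferroportin) had 46.7, 63.2 and 58.6 in sh2, against 43.3, 44.1 and 45.6 in shNC libraries, with groups that did not overlap (log2 fold change 0.32, 95% interval 0.02 to 0.63, adjusted p = 0.149). Without sh2 replicate 1 it rose (0.45, adjusted p = 0.0164). The iron importer SLC11A2 had 12.7, 14.6 and 14.9 in sh2, against 10.0, 15.1 and 9.79 in shNC libraries, where the groups overlapped. The copper importer SLC31A1 had 22.1, 21.1 and 18.8, against 18.9, 26.7 and 20.4.

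**Figure D3:**
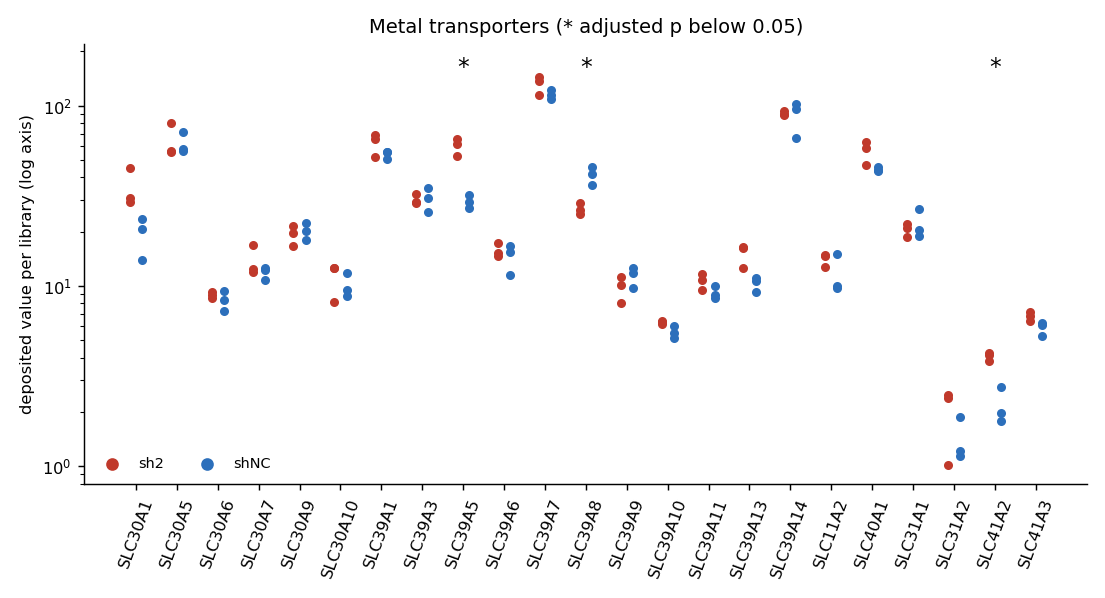
Deposited value of each metal transporter in every library on a log axis, with sh2 (red, 3 libraries) left of shNC (blue, 3 libraries). Stars mark SLC39A5, SLC39A8 and SLC41A2, which passed the test. SLC39A5 is higher and SLC39A8 lower in all 3 sh2 libraries.

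Of 17 carriers of sugars, polyols and carboxylates, 1 rose and 1 fell, and the median log2 fold change was -0.20. Without sh2 replicate 1, 5 rose and 3 fell (beside 12% up and 12.4% down among all genes tested), and the median was 0.0068. SLC2A8, a glucose transporter of internal membranes, had 60.6, 75.0 and 75.8 in sh2, against 40.9, 38.8 and 40.2 in shNC libraries. The groups were apart, with means of 70.5 ± 8.58 and 40.0 ± 1.07 (SD, n = 3 each) and a log2 fold change of 0.80 (SE 0.12, limma adjusted p = 0.0135). The call was lost without sh2 replicate 2 (adjusted p = 0.0602), shNC replicate 1 (0.0537) or shNC replicate 2 (0.0740). SLC45A4 had 3.57, 3.48 and 3.31 in sh2, against 4.74, 6.68 and 6.49 in shNC libraries (-0.63, SE 0.16, adjusted p = 0.0477). Of the 9 calls it held under the fewest settings, with 4 of 13 alternatives past the threshold, and it missed without any 1 library other than sh2 replicate 1 and after the rescaling (adjusted p = 0.102).

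Other glucose carriers did not pass with all libraries. SLC2A6, of lysosomal membranes, had 17.1, 38.6 and 47.6 in sh2, against 16.95, 16.75 and 14.1 in shNC libraries. Replicates 2 and 3 of sh2 lay far above, and sh2 replicate 1 lay just above the shNC libraries (log2 fold change 0.95, SE 0.32, adjusted p = 0.0933), and without that library it rose by 1.38 (adjusted p = 0.000844). SLC2A1, the main glucose importer of dividing cells, had 5.07, 4.55 and 3.43 in sh2, against 8.91, 6.64 and 5.82 in shNC libraries. Its groups did not overlap (log2 fold change -0.60, 95% interval -1.03 to -0.16, adjusted p = 0.0838), and it fell without sh2 replicate 1 (-0.69, adjusted p = 0.0340). The sodium-coupled sugar transporter SLC5A9 had 6.48, 10.5 and 11.7 in sh2, against 6.36, 3.70 and 6.62 in shNC libraries (adjusted p = 0.118), and it rose without sh2 replicate 1 (0.91, adjusted p = 0.0196).

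Monocarboxylate transporters carry lactate and pyruvate with protons. SLC16A3, the lactate exporter of glycolytic cells, had 43.0, 52.1 and 56.9 in sh2, against 43.8, 37.0 and 34.7 in shNC libraries (adjusted p = 0.122). SLC16A1 had 30.8, 18.4 and 15.7 in sh2, against 22.02, 28.3 and 22.2 in shNC libraries, with overlapping groups (log2 fold change -0.20, 95% interval -0.73 to 0.32). Without sh2 replicate 1, SLC16A3 rose (0.50, adjusted p = 0.0255) and SLC16A1 fell (-0.48, adjusted p = 0.0467). SLC50A1, the most abundant carrier of this class, had 82.2, 74.1 and 80.8 in sh2, against 86.4, 76.5 and 100.1 in shNC libraries.

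Nucleotide sugar, sugar phosphate and acetyl-CoA carriers of the endoplasmic reticulum and Golgi include those that supply donors for glycan and proteoglycan synthesis. The class was set by family (SLC33, SLC35 and SLC37), so not every member need carry such a donor. In limma 0 of 24 passed, with or without trend and robust moderation, while 5 had an unadjusted p below 0.05. The median log2 fold change of the 24 was 0.11. SLC35D2, which carries UDP-sugars, had 123, 136 and 137 in sh2, against 107, 97.7 and 118 in shNC libraries (adjusted p = 0.130). SLC35B3, a carrier of the sulfate donor used in glycosaminoglycan sulfation, had 23.5, 21.99 and 24.99 in sh2, against 18.1, 14.9 and 18.7 in shNC libraries (log2 fold change 0.43, 95% interval 0.13 to 0.73, adjusted p = 0.0738). In both genes every sh2 library lay above every shNC library. SLC35B2, a paralog of SLC35B3 with the same substrate, had 15.3, 22.8 and 21.7 in sh2, against 19.6, 19.7 and 19.8 in shNC libraries. The UDP-galactose transporter SLC35A2 averaged 68.7 ± 4.28 in sh2 and 64.8 ± 1.02 in shNC libraries. SLC35G1 had 5.74, 7.32 and 7.16 in sh2, against 9.23, 10.7 and 10.1 in shNC libraries (adjusted p = 0.0591), and SLC35B1 had 52.1, 49.2 and 40.7, against 60.8, 53.1 and 51.1.

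Of 12 carriers of organic ions and bile acids, 0 rose and 1 fell, with a median of 0.04. SLC47A1, which exports organic cations such as metformin in exchange for protons, had 1.31, 1.48 and 1.96 in sh2, against 3.86, 2.92 and 5.48 in shNC libraries. The groups did not overlap, at low levels (log2 fold change -0.95, SE 0.21, limma adjusted p = 0.0352), and the call was lost without any 1 library other than sh2 replicate 1, with adjusted p up to 0.107. SLC47A1 passed under 7 of 13 alternatives. SLC22A23 had 13.3, 19.5 and 16.98 in sh2, against 11.7, 12.6 and 15.2 in shNC libraries (adjusted p = 0.262), and SLC22A31 had 1.75, 2.68 and 3.64, against 4.25, 2.99 and 3.77 (adjusted p = 0.307). SLC22A18 averaged 13.6 in sh2 and 15.9 in shNC libraries, and SLC10A3 10.6 and 10.3.

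Carriers of vitamins, choline, nucleosides, fatty acids and heme had 20 members and 0 past the threshold in limma, with or without trend and robust moderation, and 4 at an unadjusted p below 0.05. The class had a median log2 fold change of -0.02, which had the opposite sign (0.08) after the rescaling. SLC29A1, the equilibrative nucleoside transporter that takes up nucleosides and nucleoside drugs, had 6.71, 8.08 and 7.49 in sh2, against 9.26, 14.7 and 11.2 in shNC libraries. Its groups did not overlap (log2 fold change -0.57, 95% interval -0.97 to -0.17, adjusted p = 0.0754). The lysosomal nucleoside transporter SLC29A3 had 18.4, 19.7 and 16.8 in sh2, against 21.7, 22.4 and 26.7 (adjusted p = 0.122). The folate carrier SLC19A1 had 9.16, 5.46 and 11.8, against 12.5, 8.15 and 7.42, and the biotin and pantothenate carrier SLC5A6 had 25.9, 22.7 and 23.3, against 22.4, 32.0 and 27.1. Riboflavin transporter SLC52A2 averaged 27.3 in sh2 and 31.1 in shNC libraries, and the fatty acid transport protein SLC27A3 33.0 and 27.3.

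The 5 vesicular and other carriers included SLC17A9, the vesicular nucleotide transporter, with 86.9, 79.6 and 84.9 in sh2, against 76.6, 66.8 and 77.3 in shNC libraries (adjusted p = 0.290). In limma 0 of the 5 passed, with or without trend and robust moderation, and 0 had an unadjusted p below 0.05. SLC17A5, the lysosomal sialic acid exporter, averaged 26.2 in sh2 and 28.4 in shNC libraries, and SLC18B1, a vesicular polyamine transporter, 34.1 and 32.3. SLC17A1, a urate and phosphate transporter, was low, at 1.37 to 1.90 in sh2 and 1.11 to 1.75 in shNC libraries.

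**Figure D4:**
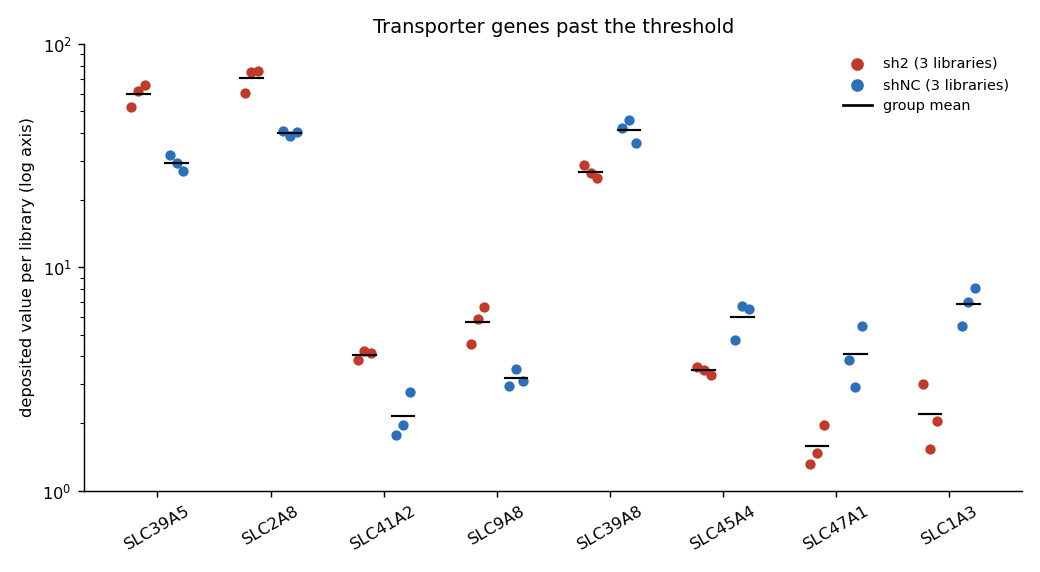
Deposited value in every library of the named transporters past the threshold, on a log axis, with sh2 (red) left of shNC (blue) for each gene and a bar at each group mean. No sh2 library overlaps the shNC libraries in any of the genes shown.

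Other genes of membrane transport were set beside the solute carriers. For the counts that follow, the share past the threshold among all genes tested was 8.08% (4.15% up and 3.94% down). Of 25 ABC transporters, 2 rose and 1 fell (median log2 fold change 0.09), and ABCB1 alone passed in limma without trend and robust moderation. ABCB1, the multidrug efflux pump, had 39.0, 58.1 and 57.7 in sh2, against 19.3, 19.7 and 21.2 in shNC libraries (1.30, SE 0.16, limma adjusted p = 0.00969), and ABCD3, a peroxisomal carrier, had 36.9, 45.7 and 44.8, against 57.5, 76.4 and 71.2 (-0.67, adjusted p = 0.0317). Of 37 mitochondrial SLC25 carriers, 1 rose and 2 fell, with a median of -0.22, and 32 of the 37 (86.5%) had a negative fold change, beside 53.5% of all genes tested. After the rescaling these shares were 70.3% and 42.8%, and the median of the list was -0.13. SLC25A5, an ADP/ATP carrier of the inner mitochondrial membrane, had 485, 494 and 478 in sh2, against 667, 718 and 736 in shNC libraries (-0.54, adjusted p = 0.0212), and it alone of the list passed in limma without trend and robust moderation. Of 10 ion-pump ATPases, 0 passed in limma, with or without trend and robust moderation, and 3 had an unadjusted p below 0.05. Of 13 partners and regulators tested, 2 rose. These were TMEM27, collectrin, which in kidney brings amino acid transporters such as SLC6A19 to the surface (12.7, 29.2 and 33.1 in sh2, against 4.29, 2.68 and 5.74 in shNC), and SGK1, a kinase that regulates many carriers (66.5, 134 and 160, against 47.5, 44.9 and 52.3). TMEM27 alone of them passed in limma without trend and robust moderation. SLC6A19 itself had 3.49, 4.77 and 5.00 in sh2, against 5.42, 6.22 and 6.73 in shNC libraries, and did not pass (adjusted p = 0.150). Of the partners and regulators, STC2 was apart in sh2 replicate 1 and did not pass (limma adjusted p = 0.384). It had 12.4, 3.49 and 2.67 in sh2, against 2.42, 3.23 and 3.37 in shNC libraries.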

How the data were processed

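Total RNA of Huh7 cells was measured by RNA-seq in 3 sh2 and 3 shNC libraries. The deposited table gives 23344 human Ensembl genes by library and does not name its unit. The values, which the authors deposited already normalized, were treated as FPKM, and TPM of an incomplete gene set cannot be told apart from it. Read depth is unknown. Tools listed in the submitters' processing notes, with no role given, include RSEM 1.1.17 and Bowtie2 2.2.6, and the build listed is the mouse build mm10, although the gene IDs are human, so no coordinates were taken from the table.

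Here log2(value + 1) was tested with limma 3.58.1 (R 4.3.3, trend and robust moderation) over 13696 genes at 1 or more in at least 3 libraries, with Benjamini-Hochberg adjustment at 0.05, and the code was tested on simulated data. There 23.7% of 1.5-fold and 66.9% of 2-fold changes, put into genes of higher level, passed. A count of 0 past the threshold is thus not absence of change. Fold changes are on this log2 scale and understate those of low genes. Intervals are 95% and unadjusted. The exact permutation test of 3 against 3 libraries cannot go below 0.1 and was not used. Named genes were, in each substrate class, those past the threshold, the 2 of smallest p not past it and the 3 of highest mean, plus a fixed set of carriers, and up to 3 per companion list by p. SLC1A4, SLC5A9, SLC6A9, SLC6A19, SLC7A1, SLC7A7, SLC9A7, SLC31A1, SLC35B2, SLC38A1 and the genes apart in sh2 replicate 1 or at the edge of the filter were added after their values were seen. So were the response genes described and some of the carriers that passed only without sh2 replicate 1. Other carriers that passed only in that setting are counted but not named. The members and lists were chosen with earlier results of these data known. Alternatives were another pseudocount, other filters, quantile normalization, rescaling, plain limma, a replicate block and leaving out each library. Some genes are counted but not reported here. Promoter windows are from RefSeq (GRCh38.p14).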

Additional observations from a re-analysis of the deposited data

How the results depend on the processing

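The count of transporters past the threshold was 9, and 4 with no filter on low values, where all genes gave 217, against 727 in limma without trend and robust moderation and 1107 in the reported test. By class, with no filter 1 ion, 1 metal, 0 organic ion and 1 sugar carrier passed. With rescaling, 2 amino acid carriers and 1 sugar carrier passed, with quantile normalization 1 Golgi and endoplasmic reticulum carrier, and with plain limma 1 sugar carrier. Leaving out 1 library at a time gave 54 to 3342 of all genes, 1 to 32 transporters, 0 to 7 amino acid, 0 to 2 Golgi and endoplasmic reticulum, 1 to 8 ion, 0 to 5 metal, 0 to 1 organic ion, 0 to 8 sugar and 0 to 1 vitamin carriers, and a VCAN log2 fold change of -1.56 to -1.23. SLC1A5 changed sign with quantile normalization (0.0099) and rescaling (0.0349), and SLC38A1 with rescaling (0.0721). Leave-out ranges that crossed 0 were -0.45 to 0.17 for SLC1A5, -0.38 to 0.19 for SLC38A1, -0.0083 to 0.0772 for SLC10A3, -0.22 to 0.0075 for SLC17A5, -0.031 to 0.23 for SLC18B1, -0.32 to 0.17 for SLC19A1, -0.14 to 0.15 for SLC30A5, -0.025 to 0.27 for SLC38A2, -0.12 to 0.19 for SLC39A14 and -0.21 to 0.18 for SLC3A2. The cause was not tested. With the replicate number as a block, 861 genes and 6 transporters passed, with 1 ion and 1 sugar carrier. The reported test has no such block because the labels do not say that the numbers pair libraries. Same-numbered libraries correlated at 0.053, 0.105 and 0.135 in their deviations from the group means. Replicates 2 and 3 of sh2 correlated best with the shNC library of their own number, and sh2 replicate 1 with shNC replicate 2 (0.094). These values do not settle whether the numbers pair libraries. Depth is unknown, so no counting error is given.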
